A study of Rattus norvegicus with 65 samples.

Results

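Clofibrate is a fibrate, a lipid-lowering drug that causes liver tumours in rats without damaging DNA directly. The livers of 3 rats given clofibrate in the repeated schedule, labelled long, were set against those of 3 rats given it in the single schedule, labelled short. These 6 arrays are 6 of the 65 in the series, were chosen by their titles, and include no control in the comparison. All were livers of male Sprague-Dawley rats aged 6 weeks, 1 rat per array, with RNA hybridised to Affymetrix rat arrays. The labels give 72 h for long and 3 h for short, whereas the treatment protocol describes 3 administrations in the repeated groups and autopsy a day later, so only the words long and short are used. The number of doses, the time since the last dose and any difference in the hour of autopsy therefore cannot be told apart. The clofibrate dose is not given in the labels used here. Beside these groups stand rats of the same nongenotoxic set: 3 long and 3 short rats given 1,4-dioxane (a solvent), 3 long and 3 short rats given DL-ethionine (an analogue of methionine), and 3 control rats whose labels give no time. The fit behind the SEs and p-values also took in 20 arrays of the genotoxic set. Those were long and short rats given 2-AAF, 3MeDAB or DEN, and the controls of that set. Values are log2 signals made by RMA, so a difference of 1 is a 2-fold change, and every difference below is long minus short unless another is named.

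Fibrates bind the nuclear receptor PPAR alpha, which in rodent liver pairs with RXR on direct repeats of a 6-base receptor site and raises genes for fatty acid transport, peroxisomal and mitochondrial beta oxidation and omega oxidation. In rats sustained activation enlarges the peroxisome compartment. The liver also carries a circadian clock, in which BMAL1 with CLOCK or NPAS2 activates the Per and Cry repressors, the REV-ERB receptors and the PAR bZIP factors DBP, TEF and HLF, so levels of these genes swing over the day. Genes of both systems lead the lists below.

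The arrays matched their tissue label. Summed over 10 hepatocyte markers, the log2 level was 17.32 to 17.34 in the long and 17.33 to 17.35 in the short rats, and albumin (Alb) lay between 14.76 and 14.78 in the long and between 14.77 and 14.81 in the short rats. Of 70 tested markers of hepatocytes and 8 other cell types, 0 passed the test in limma (5 had an unadjusted p under 0.05, against 1689 of all 11007 genes). The largest median shifts were those of sinusoidal endothelium (-0.24 over 9 markers) and macrophages (-0.19 over 12), whose log2 summed levels were 11.88 to 12.43 in long against 12.41 to 12.93 in short rats and 14.04 to 14.31 in long against 14.22 to 14.39 in short rats, and their part in the results was not tested. In whole liver, fewer cells of a type and less RNA per cell cannot be told apart. Probe sets at the 3' and 5' ends of Gapdh, a check of RNA integrity, differed by 0.48 to 0.56 in the long and 0.41 to 0.66 in the short rats. Short rat 2 stood furthest from its group: its root mean square distance from the mean of its group mates was 0.31 log2 units, against 0.18 to 0.24 for the other 5 rats. Most called genes were most extreme in it, since it was the short rat furthest from the long rats in 186 of 235 lower genes (79.1%) and in 118 of 147 higher genes (80.3%), and the counts for gene lists are therefore given with and without it.

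The difference between long and short clofibrate was lopsided in size. Of 11007 genes tested, 382 (3.47%) passed an adjusted p of 0.05 in limma with Benjamini-Hochberg adjustment over all genes, 147 higher and 235 lower in long. Differences of at least 1 log2 unit were mostly downward, with 81 lower and 30 higher, while the median over all genes was 0.008. In 375 of the 382 the 3 long rats did not overlap the 3 short rats, which held for 2904 of all genes tested (26.4%). Lack of overlap was also a condition for naming the genes with the largest differences, so it is no separate support for them. Without short rat 2 the count was 81 (22 higher, 59 lower), all 81 among the 382. It was 228, 213 and 212 without long rats 1, 2 and 3, and 222 with the 6 clofibrate arrays alone. Of those 222, 154 were among the 382 (40.3% of the 382). Of 82 genes named by rule, 27 passed in every fit that left out 1 clofibrate rat, among them Bmal1, Npas2, Dbp, Hlf, Slc6a6, Tubb2a, Rgs16, Enc1, Hilpda, Slc22a5, Cpt1a, Cpt2, Eci1, Ech1 and Hacl1, and 55 lost the call without short rat 2. With the 6 clofibrate arrays alone 36 of 81 named genes lost the call, Hilpda among them. Nothing labels animals beyond 1 rat per array. The p-values rest on the spread between rats within groups, pooled over the 14 groups and 41 arrays of the fit, and not on the clofibrate rats alone. For Bmal1 the SDs were 0.17 in long and 0.09 in short rats, against an SE of 0.53. For Hilpda they were 0.09 and 0.93, against an SE of 0.30.

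**Figure D1:**
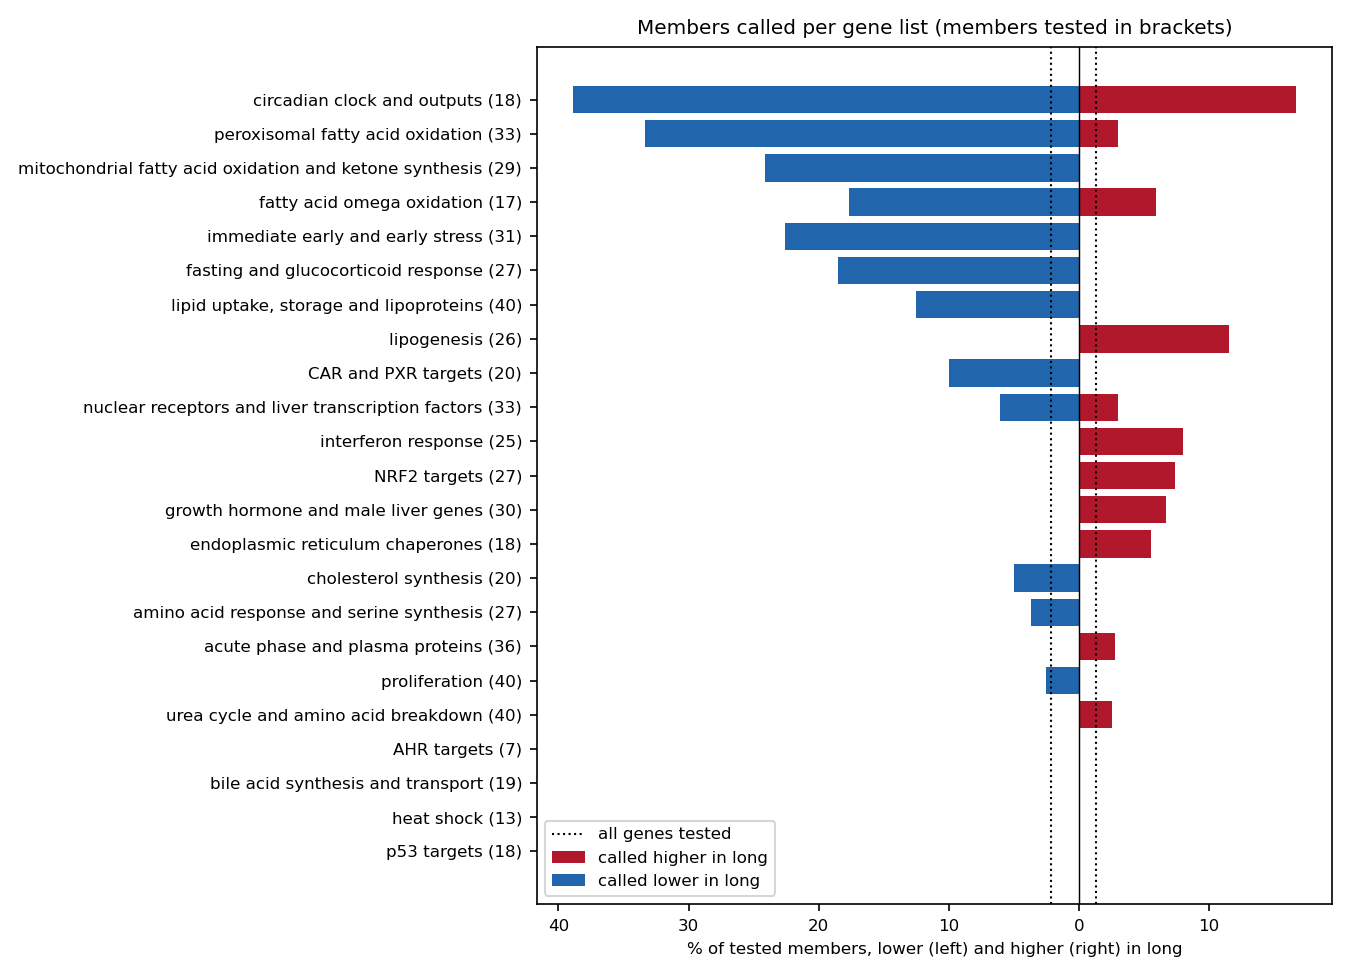
Share of tested members of each gene list that passed the test, higher in clofibrate long to the right and lower to the left of 0, in percent, with the number tested in brackets; dotted lines mark the shares over all genes tested, 1.34% higher and 2.14% lower. With both directions summed, clock genes and the 3 fatty acid oxidation lists had the largest shares; 38.9% of clock and 33.3% of peroxisomal members were lower in long.

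The promoters of genes that moved together are shown because PPAR alpha with RXR is known to bind a direct repeat of AGGTCA spaced by 1 base (DR1), ROR and REV-ERB receptors bind a single copy of it, and BMAL1 binds the E-box CACGTG. Windows of 250 bases before the RefSeq start of each gene, from the rat build GRCr8, were searched on both strands for AGGTCA, for 2 copies of AGGTCA with 1 base N between them allowing up to 2 mismatches, and for CACGTG; an exact AGGTCA inside a repeat counts for both. Each sequence is given 5′ to 3′ on the strand of its gene, with the match in capitals.
Acot4, chr6:109399604-109399853, + strand, a DR1 match with 1 mismatch read on the opposite strand, 13 bases before the start: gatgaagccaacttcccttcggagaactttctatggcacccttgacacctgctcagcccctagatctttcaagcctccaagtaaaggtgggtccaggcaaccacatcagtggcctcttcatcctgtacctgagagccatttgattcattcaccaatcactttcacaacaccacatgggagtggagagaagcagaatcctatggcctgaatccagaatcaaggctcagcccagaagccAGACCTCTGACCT
Gys2, chr4:177137237-177137486, - strand, a DR1 match with 1 mismatch, 80 bases before the start: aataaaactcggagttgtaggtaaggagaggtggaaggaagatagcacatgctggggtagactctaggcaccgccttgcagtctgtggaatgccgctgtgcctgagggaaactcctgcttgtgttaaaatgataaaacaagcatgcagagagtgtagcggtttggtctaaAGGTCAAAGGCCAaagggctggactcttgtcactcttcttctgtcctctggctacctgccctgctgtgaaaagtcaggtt
Bmal1, chr1:176766078-176766327, + strand, an AGGTCA match 15 bases before the start: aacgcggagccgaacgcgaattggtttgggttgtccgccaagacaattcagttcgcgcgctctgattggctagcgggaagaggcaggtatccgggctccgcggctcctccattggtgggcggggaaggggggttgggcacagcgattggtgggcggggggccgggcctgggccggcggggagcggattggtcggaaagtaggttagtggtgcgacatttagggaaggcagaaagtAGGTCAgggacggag
Tef, chr7:115206577-115206826, + strand, an E-box 198 bases before the start: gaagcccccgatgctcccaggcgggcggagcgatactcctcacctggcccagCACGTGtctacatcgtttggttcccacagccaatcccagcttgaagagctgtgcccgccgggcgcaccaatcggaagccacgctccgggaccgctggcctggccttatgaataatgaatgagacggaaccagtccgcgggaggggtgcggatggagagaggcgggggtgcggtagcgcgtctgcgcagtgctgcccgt
Of 19 windows of fatty acid oxidation genes called lower, 3 held a DR1 match (15.8%), those of Acot4, Crat and Por, against 242 of the 9204 windows of all genes tested (2.63%). Among all tested peroxisomal members with a window, called or not, 6 of 31 held one (19.4%), so the share was not higher among the called ones (2 of 11, 18.2%). AGGTCA stood in 4 of the 19 (21.1%, against 11.2%) and the E-box in 0 of the 19 (against 8.29%). Of 9 windows of called clock genes, 3 held AGGTCA (33.3%) and 1 the E-box, that of Tef (11.1%). These matches describe letters in the windows, and binding was not measured.

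Clock genes held the largest differences. Of 18 tested clock genes and outputs, 3 rose and 7 fell in long (55.6% called against 3.47% of all genes), and the median was -0.60. Bmal1, the core activator (also called Arntl), had 8.38, 8.21 and 8.05 in the long rats and 5.39, 5.21 and 5.30 in the short rats. All long rats lay far above all short rats, a 7.54-fold difference (2.92 ± 0.53, SE of the fit; adjusted p = 0.00126). Npas2, the partner of Bmal1, had 9.56, 9.59 and 9.13 in the long rats and 6.55, 6.22 and 7.17 in the short rats. Npas2 was 6.86-fold higher in long (2.78 ± 0.42, adjusted p = 0.000144). Clock, the other partner, was higher by 0.64 (adjusted p = 0.0376).

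The 7 clock genes called lower were the PAR bZIP factors, Per3, Nr1d2, Usp2 and Noct. Dbp had 6.00, 6.52 and 6.39 in the long rats against 10.48, 10.49 and 10.12 in the short rats. This was the largest fall among called genes, 16.7-fold (-4.06 ± 0.80, adjusted p = 0.00268). The related factors Hlf (-1.37 ± 0.22, adjusted p = 0.000366) and Tef (-1.26 ± 0.22, adjusted p = 0.000697) fell less, and so did Per3 (-1.13) and the REV-ERB beta gene Nr1d2 (-1.01). Usp2, a deubiquitinase with rhythmic liver expression, had 6.12, 6.30 and 6.49 in the long rats and 9.57, 10.35 and 7.36 in the short rats. Noct, the NADP(H) phosphatase nocturnin, had 5.74, 5.29 and 5.31 in the long rats and 9.76, 9.35 and 6.84 in the short rats. For both genes short rat 3 lay well below its group mates, and both lost the call without short rat 2 and without 1 other rat or more. Members that did not pass were Nr1d1 (-0.62, adjusted p = 0.444), Per1 (-0.60, adjusted p = 0.281), Cry1 (0.58, adjusted p = 0.464), Cry2 (-0.56, adjusted p = 0.131), Nfil3 (0.80, adjusted p = 0.298), Rora (0.52), Bhlhe40 (-0.60) and Per2 (-0.06). Without short rat 2, 6 of the 18 passed.

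The 3 control rats differed among themselves in some clock genes. Bmal1 had 5.20 in control rat 1, near the short rats, and 7.97 and 8.07 in control rats 2 and 3, near the long rats. Dbp had 9.93 in control rat 1 and 6.91 and 7.23 in the others, and Usp2 had 8.86 against 5.71 and 6.00. Bmal1 and Dbp changed the same way in the other compounds, whose rats are separate animals: Bmal1 differed by 2.72 in dioxane (adjusted p = 0.00181) and 2.93 in ethionine rats (adjusted p = 2.23e-05), and Dbp by -2.99 (adjusted p = 0.0227) and -3.67 (adjusted p = 0.000248). Npas2 and Hlf were also called the same way in both compounds in limma. Npas2 differed by 2.13 in dioxane (adjusted p = 0.00203) and 1.48 in ethionine (adjusted p = 0.00369). Hlf differed by -0.87 in dioxane (adjusted p = 0.0169) and -1.28 in ethionine (adjusted p = 1.38e-05). Usp2 and Noct varied. Usp2 differed by -3.97 in dioxane (adjusted p = 0.000404) and -0.97 in ethionine (adjusted p = 0.22). Noct differed by -2.42 in dioxane (adjusted p = 0.0582) and 1.35 in ethionine (adjusted p = 0.142). The medians of the list were -0.73 in dioxane and -0.07 in ethionine.

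**Figure D2:**
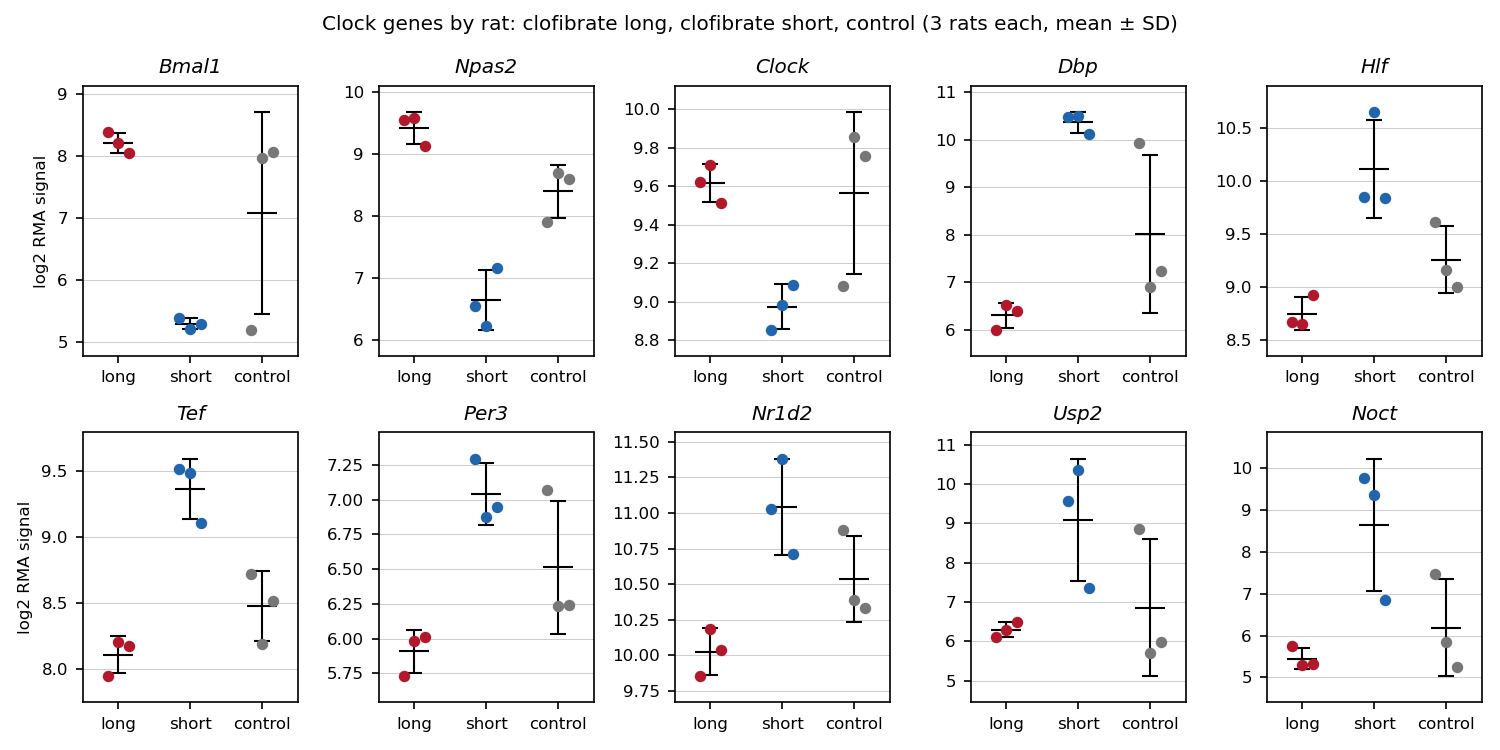
RMA log2 signal of 10 clock genes in each rat of the clofibrate long, clofibrate short and control groups (points, 3 rats per group), with the mean and SD; each panel has its own scale, which does not start at 0. Long and short rats do not overlap in any panel, as in 375 of the 382 called genes, and control rat 1 (left grey point) lies near the short rats for Bmal1 (5.20) and Dbp (9.93).

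Peroxisomal fatty acid oxidation was lower in long. Of 33 tested members 11 fell and 1 rose (36.4% called, against 3.47% of all genes), and the median was -0.30. In 20 members every long rat lay below every short rat, and in 3 every long rat lay above, against 1445 and 1459 of all 11007 genes. Pex11a, a membrane protein that drives peroxisome division, had 8.68, 8.60 and 8.51 in the long rats and 9.36, 11.53 and 9.72 in the short rats. The groups did not overlap, but short rat 2 was far above the other short rats, and the difference (-1.61 ± 0.35, adjusted p = 0.00696) was -0.94 without it (adjusted p = 0.15). A second probe set of Pex11a gave -1.60.

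Ehhadh, the bifunctional enzyme of the pathway and a classic fibrate target in rats, had 11.80, 11.80 and 11.68 in the long rats and 12.71, 13.57 and 13.06 in the short rats. It was 2.55-fold lower in long (-1.35 ± 0.28, adjusted p = 0.00412), with every long rat below every short rat. Hacl1, the lyase of alpha oxidation, had 11.72, 11.62 and 11.57 in the long rats and 12.78, 13.02 and 12.84 in the short rats. Its spread within groups was small (SD 0.08 in long and 0.12 in short, n = 3 each) and its adjusted p was 1.37e-05 (-1.24 ± 0.16). Ech1, the dienoyl-CoA isomerase, fell by 1.29 (adjusted p = 0.00306), and Crat, carnitine acetyltransferase, fell by 1.33 (adjusted p = 0.00268). The thioesterases Acot4 (-1.54 ± 0.31, adjusted p = 0.0035) and Acot3 (-1.08 ± 0.31, adjusted p = 0.0431), which free fatty acids from their CoA esters in peroxisomes, were lower as well. The other called members were the membrane proteins Pxmp4 (-0.87) and Pex16 (-0.67), malonyl-CoA decarboxylase Mlycd (-0.50), the D-bifunctional enzyme Hsd17b4 (-0.30) and, in the opposite direction, the 2-hydroxyacid oxidase Hao2 (0.57 ± 0.14, adjusted p = 0.0144). Without short rat 2, 3 of the 33 passed, and Ehhadh, Crat, Acot4, Pex11a and Hao2 lost the call.

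Several abundant members did not pass the test. Catalase (Cat) was at 13.73, 13.84 and 13.73 in the long rats and at 13.70, 13.59 and 13.66 in the short rats, a difference of 0.12 (adjusted p = 0.627). Acsl1 (0.02), Scp2 (0.05), Slc27a2 (-0.04) and Crot (-0.03) had adjusted p-values between 0.778 and 0.967. Nudt7, a peroxisomal CoA hydrolase, was lower by 0.83 and missed the threshold (adjusted p = 0.0529). Ephx2, a peroxisomal and cytosolic epoxide hydrolase, had 7.10, 10.95 and 11.06 in the long rats and 11.18, 11.43 and 11.14 in the short rats, so its difference of -1.55 (adjusted p = 0.153) came mostly from long rat 1.

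Carnitine shuttling and mitochondrial oxidation moved the same way. Of 29 tested genes of mitochondrial fatty acid oxidation and ketone synthesis, 7 fell and 0 rose (24.1% lower, against 2.14% of all genes). The median was -0.14, and 12 had an unadjusted p under 0.05 in limma (41.4%, against 15.3% of all genes). Slc22a5, the carnitine transporter OCTN2, had 9.10, 8.99 and 8.71 in the long rats and 10.67, 11.01 and 10.44 in the short rats. This 3.42-fold fall had the smallest adjusted p of the lipid genes (-1.77 ± 0.21, adjusted p = 6.47e-06) and was called in every leave-one-out fit. Cpt1a and Cpt2, the acyltransferases that carry long-chain acyl groups into the matrix, were each 1.87-fold lower (-0.90 ± 0.17, adjusted p = 0.00169; -0.90 ± 0.15, adjusted p = 0.000356). Cpt1a had 12.16, 12.30 and 12.31 in the long rats and 13.27, 13.25 and 12.96 in the short rats, with no overlap. The thioesterase Acot2 (-1.39 ± 0.30, adjusted p = 0.00705), the enoyl-CoA isomerase Eci1 (-1.32 ± 0.23, adjusted p = 0.000969) and the trifunctional protein subunit Hadhb (-0.49 ± 0.11, adjusted p = 0.00881) were lower too.

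Pdk4, the kinase that shuts pyruvate dehydrogenase when fat is burned, had 10.72, 10.98 and 10.58 in the long rats and 11.04, 13.51 and 12.33 in the short rats. The groups did not overlap, but the short rats spanned more than 2 log2 units, and the call (-1.53 ± 0.43, adjusted p = 0.0399) was lost in 5 of 6 leave-one-out fits. A second probe set of Pdk4 gave -0.855 and was not called. Cpt1b, the muscle form of carnitine palmitoyltransferase, was low in the long rats (5.92, 5.67, 5.90) and at 6.34, 8.88 and 6.69 in the short rats (adjusted p = 0.0528). Fgf21, a hormone of the fasted liver, was 10.21, 9.84 and 9.33 in long and 11.65, 10.60 and 11.43 in short rats (adjusted p = 0.357). The acyl-CoA dehydrogenases Acadm (-0.11), Acadl (-0.07), Acadvl (-0.02) and Acads (0.02) did not pass, with adjusted p-values between 0.619 and 0.979. Without short rat 2, 4 of the 29 passed.

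**Figure D3:**
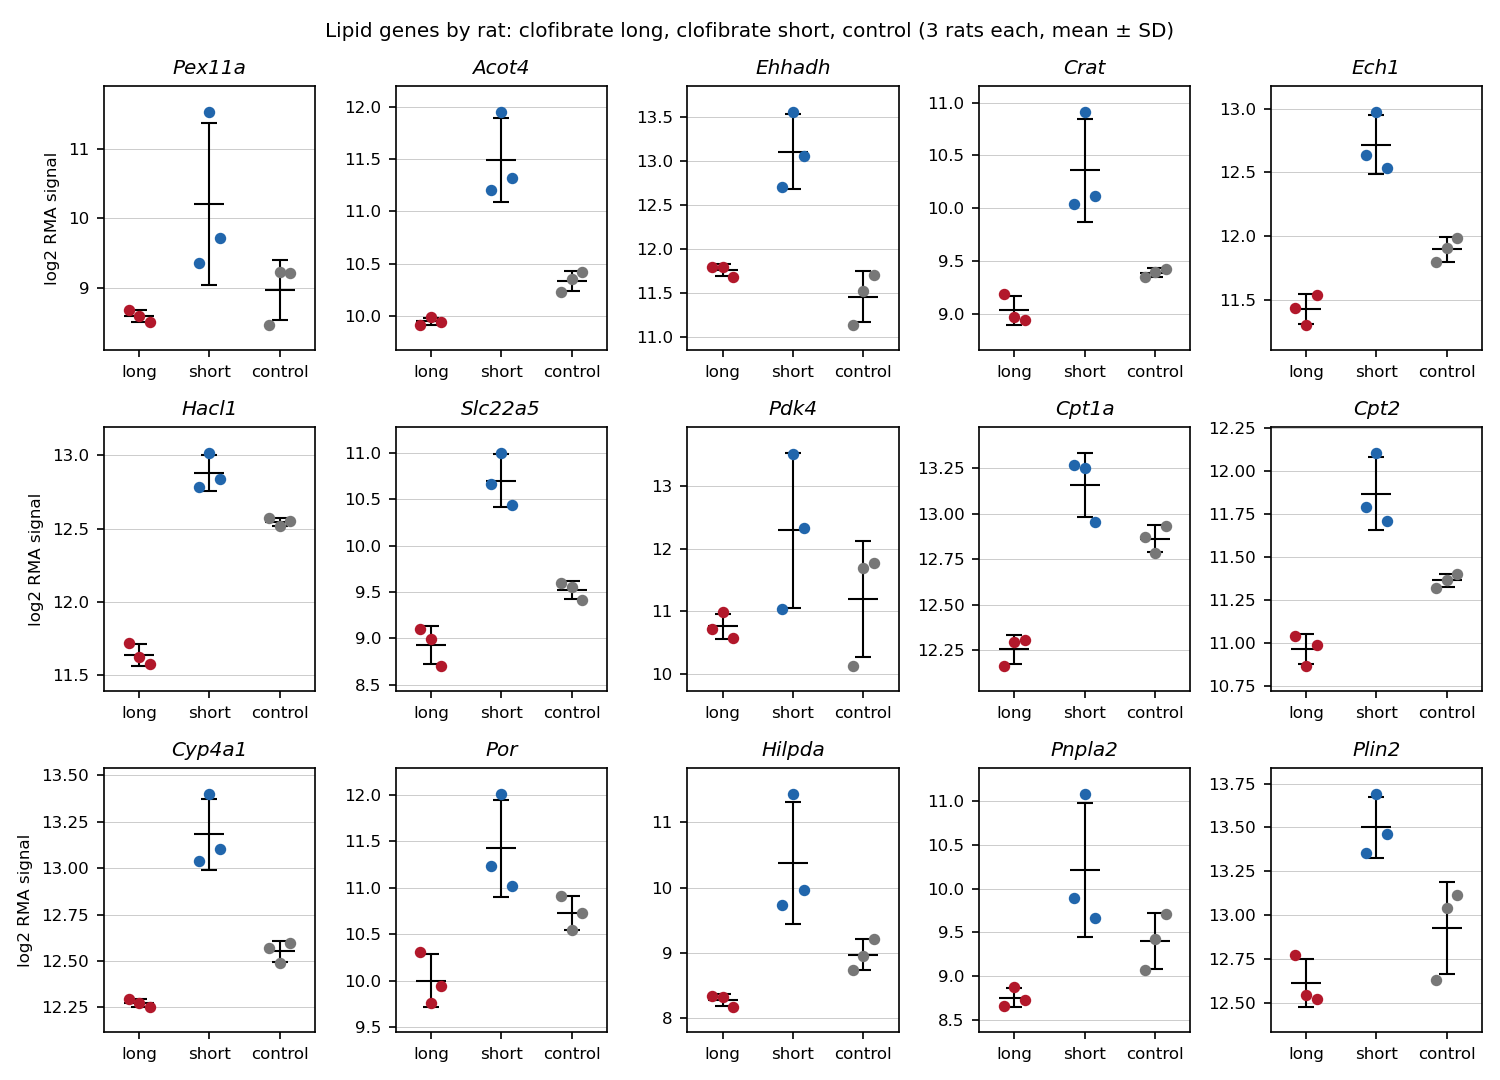
RMA log2 signal of 15 lipid genes in each rat of the clofibrate long, clofibrate short and control groups (points, 3 rats per group), with the mean and SD; each panel has its own scale, which does not start at 0. In every panel the 3 long rats lie below the 3 short rats, and the middle short point (short rat 2) is the highest of its group in all panels except Cpt1a. The genes shown were called lower in long, and 375 of the 382 called genes had no overlap.

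Omega oxidation, in which microsomal cytochromes hydroxylate the far end of a fatty acid, was split. Of 17 tested members 3 fell and 1 rose (23.5% called, against 3.47% of all genes), with a median of -0.08. Cyp4a1, the fatty acid hydroxylase most used as a marker of fibrate action in rats, had 12.30, 12.27 and 12.25 in the long rats against 13.04, 13.40 and 13.11 in the short rats. It was 1.88-fold lower in long (-0.91 ± 0.20, adjusted p = 0.00659). Por, the reductase that hands electrons to all microsomal P450 enzymes, had 10.31, 9.76 and 9.94 in the long rats and 11.24, 12.01 and 11.02 in the short rats (-1.42 ± 0.27, adjusted p = 0.00192). Aldh3a2, fatty aldehyde dehydrogenase, fell by 0.43 (adjusted p = 0.00507), whereas Cyp4f6 rose by 0.54 (adjusted p = 0.0159). Cyp4a3 was 12.77, 12.20 and 12.13 in long and 13.06, 13.03 and 13.16 in short rats (adjusted p = 0.0953). Without short rat 2, Por alone of the 17 passed.

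In lipid uptake, storage and lipoproteins, 5 of 40 tested members fell and 0 rose (12.5% lower, against 2.14% of all genes). The median was -0.02, and 11 had an unadjusted p under 0.05 in limma (27.5%, against 15.3% of all genes). All 5 handle droplets or uptake. Hilpda, a droplet protein that inhibits the triglyceride lipase Pnpla2, had 8.34, 8.33 and 8.18 in the long rats and 9.73, 11.44 and 9.96 in the short rats (4.27-fold lower; -2.09 ± 0.30, adjusted p = 9.46e-05). Pnpla2 itself had 8.66, 8.87 and 8.73 in the long rats and 9.90, 11.09 and 9.66 in the short rats (-1.46 ± 0.25, adjusted p = 0.000633). Both genes kept the call in every leave-one-out fit, and so did the droplet protein Cidec (-1.05 ± 0.17, adjusted p = 0.000356). Hilpda, Pnpla2 and Cidec lost the call with the 6 clofibrate arrays alone. The droplet coat Plin2 (-0.89 ± 0.24, adjusted p = 0.031) and the fatty acid transporter Cd36 (-1.14 ± 0.33, adjusted p = 0.0466) were called in the fit of all rats but not in 5 of the 6 leave-one-out fits. The count was 3 without long rat 2, long rat 3, short rat 2 or short rat 3. Fabp1, the abundant fatty acid binding protein of hepatocytes, was at 14.11, 14.18 and 14.09 in the long rats and 14.10, 14.11 and 14.16 in the short rats, and the apolipoproteins Apoa1 (-0.08), Apob (-0.02), Apoc3 (0.04) and Apoe (0.03) had adjusted p-values of 0.774 to 0.956. Acot1, a cytosolic thioesterase, was at 4.07, 4.12 and 4.34 in the long rats and at 5.00, 9.43 and 4.75 in the short rats, so its difference of -2.22 (adjusted p = 0.176) rested on short rat 2.

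Called lipogenic genes were higher in long. Of 26 tested lipogenic genes 3 rose and 0 fell in long (11.5% higher, against 1.34% of all genes), with a median of 0.19. The list was split, with 14 positive and 12 negative differences. Uncalled members ranged from 1.42 for Mid1ip1 to -0.84 for Lpin2 and -1.07 for Elovl6. The called genes were Gpam, the first enzyme of glycerolipid synthesis (0.97 ± 0.24, adjusted p = 0.0161), Mlxipl, the carbohydrate-responsive factor ChREBP (0.61 ± 0.18, adjusted p = 0.0457), and the elongase Elovl5 (0.42 ± 0.11, adjusted p = 0.0329). The count of 3 became 1 without long rat 1 and 0 in limma without long rat 2 or short rat 2 (8 and 4 at an unadjusted p under 0.05). In cholesterol synthesis Sqle, squalene epoxidase, fell by 0.94 (adjusted p = 0.0348). It was the only 1 of 20 members called (5.0%, against 3.47% of all genes), and without short rat 2 it lost the call.

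Early response genes were lower in long. Of 31 tested immediate early and early stress genes 7 fell and 0 rose (22.6% lower, against 2.14% of all genes). The median was -0.64, and 17 had an unadjusted p under 0.05 in limma (54.8%, against 15.3% of all genes). In dioxane the median was -0.72 and 5 members were called lower, where 2.23% of all genes were. In ethionine the median was 0.59. Egr1, an immediate early transcription factor, had 7.24, 6.74 and 6.81 in the long rats and 8.64, 11.63 and 10.04 in the short rats. It was 9.03-fold lower in long with no overlap (-3.17 ± 0.61, adjusted p = 0.00238), and short rat 2 was again the highest. Gadd45a, a stress-induced regulator of growth arrest, had 8.62, 8.99 and 8.75 in the long rats and 10.40, 11.90 and 10.29 in the short rats (-2.08 ± 0.42, adjusted p = 0.00366). The matricellular gene Ccn2 (-1.71), the stress factor Atf3 (-1.62), Junb (-1.31), Cebpd (-0.91) and Cebpb (-0.67) were the other called members, with adjusted p-values of 0.00883 to 0.0348. Myc (7.74, 7.88 and 7.43 in long, and 8.39, 10.80 and 8.23 in short rats) and Fos (4.05, 3.98 and 4.21 in long, and 4.20, 5.37 and 4.34 in short rats) did not pass (adjusted p = 0.194 and 0.483). Without short rat 2, 0 of the 30 still tested passed in limma (10 had an unadjusted p under 0.05), and the count was 4 without long rat 1 and 3 without long rat 3.

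Fasting and glucocorticoid responsive genes fell in 5 of 27 cases and rose in 0 (18.5% lower, against 2.14% of all genes). The median was -0.24, and 11 had an unadjusted p under 0.05 in limma (40.7%, against 15.3% of all genes). In dioxane the median was -0.57 and 9 members were called lower, where 2.23% of all genes were. In ethionine the median was -0.18. Tat, the glucocorticoid-induced tyrosine aminotransferase, had 10.07, 9.82 and 9.41 in the long rats and 10.95, 12.12 and 10.57 in the short rats (-1.45 ± 0.35, adjusted p = 0.0126). Igfbp1, an insulin-repressed binding protein of growth factors, fell by 1.41 (adjusted p = 0.0102), Klf15, a factor of amino acid catabolism, by 1.34 (adjusted p = 0.0117), the liver glycogen synthase Gys2 by 1.31 (adjusted p = 0.000697), and the fasting factor Creb3l3 by 0.61 (adjusted p = 0.023). Pck1, the gluconeogenic carboxykinase, differed by -0.24 (adjusted p = 0.298). The count was 1 without short rat 2, 2 without long rat 3 and 3 without long rat 1.

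Outside these lists the genes with the largest rises were of mixed function. Slc6a6, the taurine transporter, had 9.73, 10.11 and 9.68 in the long rats and 7.13, 6.61 and 7.36 in the short rats (7.01-fold higher; 2.81 ± 0.44, adjusted p = 0.000228). The tubulins Tubb2a (11.81, 11.65 and 11.59 in long and 9.29, 8.72 and 9.35 in short rats; 2.56 ± 0.33, adjusted p = 2.19e-05) and Tuba4a (1.52 ± 0.27, adjusted p = 0.00125) rose together. Rprm, a p53-induced inhibitor of the cell cycle, had 7.16, 7.03 and 6.73 in the long rats and 4.15, 4.18 and 4.77 in the short rats (2.61 ± 0.59, adjusted p = 0.00883). These genes also rose in long in both dioxane and ethionine rats, except that the call of Tuba4a in dioxane missed the threshold (adjusted p = 0.108). Inhba, the activin A subunit, rose by 2.60 ± 0.64 (adjusted p = 0.0169), the sphingosine 1-phosphate receptor S1pr1 by 1.64 ± 0.27 (adjusted p = 0.000466), and Rtp3, Poteml2 and Tstd1 by 1.54 to 1.74, of which the last 3 lost the call without short rat 2.

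Socs2, Stac3 and Ppp1r3b were also among the largest rises. Socs2, a growth hormone induced inhibitor of its own receptor, had 9.27, 7.89 and 7.26 in the long rats and 5.76, 5.45 and 6.30 in the short rats (2.31 ± 0.57, adjusted p = 0.0174). Stac3, known from muscle excitation, had 10.91, 10.56 and 10.53 in the long rats and 8.16, 6.66 and 9.29 in the short rats (2.63 ± 0.71, adjusted p = 0.0307). Of 30 tested genes of the growth hormone and male liver list, Socs2 and Stac3 alone were called (6.67%, against 3.47% of all genes). Without short rat 2 that list gave 0 calls in limma, with 7 at an unadjusted p under 0.05. Ppp1r3b, which targets protein phosphatase 1 to glycogen, had 11.73, 11.11 and 11.20 in the long rats and 10.70, 8.57 and 9.20 in the short rats (1.86 ± 0.50, adjusted p = 0.0301). Rprm, Inhba, Socs2, Stac3 and Ppp1r3b lost the call without short rat 2.

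The genes with the largest falls outside the lists were also of mixed function. Rgs16, a regulator of G protein signalling, had 7.11, 7.24 and 7.76 in the long rats and 10.03, 11.71 and 10.85 in the short rats (11.3-fold lower; -3.50 ± 0.38, adjusted p = 2.6e-06), the smallest adjusted p of clofibrate long minus short named here. Enc1, an actin-binding protein, had 7.70, 8.46 and 8.12 in the long rats and 10.24, 12.20 and 10.37 in the short rats (-2.84 ± 0.36, adjusted p = 1.37e-05). Another probe set of Enc1 gave -0.97. Nceh1, a cholesteryl ester hydrolase, fell by 2.33 ± 0.32 (adjusted p = 4.66e-05), and Mfsd2a, a transporter of lysophosphatidylcholine, by 2.29 ± 0.33 (adjusted p = 0.00011). Rab30, a GTPase of the Golgi, had 9.55, 9.90 and 9.48 in the long rats and 11.75, 11.98 and 11.76 in the short rats (-2.18 ± 0.34, adjusted p = 0.000213). Short rat 2 stood close to its group mates in Rab30, and a second probe set gave -2.63. Ifrd1, Qpct and Colq fell by 1.85, 1.78 and 1.78, and of these Colq lost the call without short rat 2.

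Other programmes gave few calls. Over all genes 3.47% were called and 15.3% had an unadjusted p under 0.05 in limma. The shares called were 8.0% for interferon, 7.41% for NRF2, and 10.0% for CAR and PXR genes. They were 9.09% for nuclear receptors and liver transcription factors, and 2.5% to 5.56% for lists with a single called member. Interferon-induced GTPases Irgm (1.11, adjusted p = 0.0106) and Igtp (0.75, adjusted p = 0.0177) rose and were 2 of 25 interferon genes, 22 of which had positive differences, against 5714 of all 11007 genes. The median of the list was 0.31 in clofibrate, 0.50 in dioxane and 1.84 in ethionine, with 2, 6 and 22 members called higher. The NRF2 list of 27 gave Osgin1 (1.51, adjusted p = 0.0112) and Pgd (0.56, adjusted p = 0.0159), both higher. Among 20 targets of the xenobiotic receptors CAR and PXR, Por and Nr1i2, the PXR gene itself (-0.67 ± 0.13, adjusted p = 0.00229), fell. Single members were called in chaperones (Calr, 0.43), amino acid breakdown (Kynu, 0.61), plasma proteins (Mbl2, 0.40), the amino acid response (Herpud1, -0.94), proliferation (Kif11, -0.56) and, with Cebpb and Nr1i2, nuclear receptors and liver transcription factors (Rara, 0.39), where 3 of 33 passed, against 1 without long rat 1 or long rat 2 and 0 in limma without short rat 2 (6 at an unadjusted p under 0.05). Bile acid genes (19), heat shock genes (13), AHR targets (7) and p53 targets (18) gave 0 calls in limma, with 4, 1, 1 and 7 at an unadjusted p under 0.05. Among these genes Por alone passed without short rat 2: the interferon list gave 0 calls in limma (6 at an unadjusted p under 0.05), the NRF2 list 0 (2), the CAR and PXR list 1, and the lists with a single called member 0 each.

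Lipid genes were also set beside the control rats. Clofibrate long minus control gave 15 called genes (0.136% of those tested; 7 higher, 8 lower), and clofibrate short minus control gave 319 (2.9%; 170 higher, 149 lower). In the peroxisomal list 1 of 33 members was lower in long than in control (0.0727% of all genes were), Hacl1 (-0.91, adjusted p = 0.00556), with a median of -0.003, and 8 members were higher in short than in control (1.54% of all genes were), with a median of 0.30. Ehhadh averaged 11.76 ± 0.07 in long and 13.11 ± 0.43 in short, against 11.45 ± 0.29 in control rats (SD, n = 3 each). Slc22a5 averaged 8.93 ± 0.20 in long and 10.70 ± 0.29 in short, against 9.53 ± 0.09 in control rats. Acot4 averaged 9.95 ± 0.03 in long and 11.49 ± 0.41 in short, against 10.33 ± 0.10 in control rats. All 3 genes were highest in the short group, and of these Ehhadh alone averaged higher in long than in control rats. The mitochondrial list had a median of -0.04 in long minus control and of 0.24 in short minus control, with 4 members called higher in short than in control. Control rats carry no time in the labels, differed among themselves in clock genes as given above, and enter both comparisons.

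The same schedules with other compounds ask which changes are shared. Long minus short gave 584 calls (5.31%) in dioxane and 5684 (51.6%) in ethionine rats, and these comparisons share no array with that of clofibrate. Clofibrate and dioxane had 145 calls in the same direction and 0 in opposite directions, which is 38.0% of the clofibrate and 24.8% of the dioxane calls. Of the 382 clofibrate calls, 365 (95.5%) had the same sign in dioxane, against 67.1% of all genes. Across all 11007 genes, which are not independent of each other, the differences correlated with r = 0.63. With ethionine, 146 calls ran the same and 82 the opposite way, 59.4% of the clofibrate calls had the same sign, against 49.1% of all genes, and r was 0.03.

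**Figure D4:**
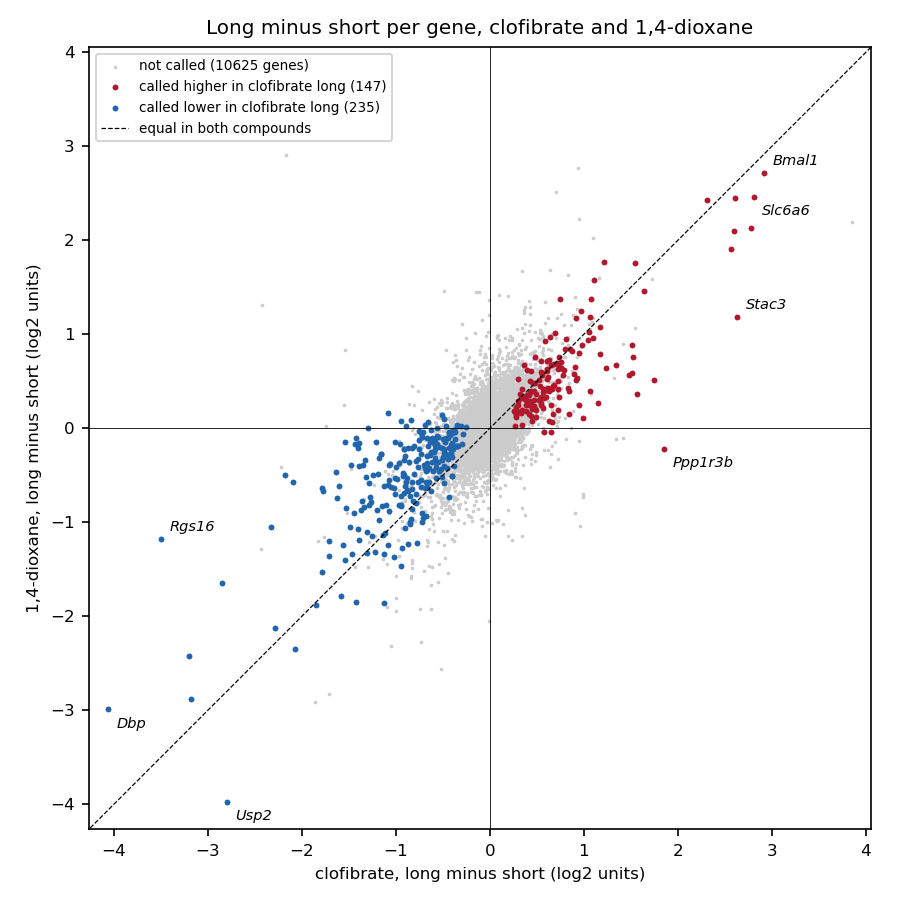
Long minus short difference per gene in clofibrate (x) and 1,4-dioxane (y), in log2 units, for 11007 genes, with the 147 genes called higher and the 235 called lower in clofibrate long in colour and the line of equal difference dashed. Called genes lie mostly in the lower left and upper right; Bmal1 (2.92 and 2.72) lies near the line, while Rgs16 (-3.50 and -1.18) and Ppp1r3b (1.86 and -0.21) lie off it.

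No gene passed in the direct test of clofibrate long minus short against dioxane long minus short (limma, 0 of 11007 called, 605 at an unadjusted p under 0.05), so no member is shown to differ from dioxane. The estimates for lipid genes are set side by side. The median of the peroxisomal list was -0.30 in clofibrate, -0.03 in dioxane and -0.51 in ethionine, and 11 of its members fell in clofibrate, 1 in dioxane and 19 in ethionine, where 2.14%, 2.23% and 21% of all genes fell. Acot4 differed by -1.54 in clofibrate and -0.14 in dioxane (adjusted p = 0.865), and the difference of differences was -1.40 ± 0.44 (adjusted p = 0.57). For Slc22a5 the values were -1.77 in clofibrate and -0.67 in dioxane (adjusted p = 0.056), for Hilpda -2.09 and -0.57, for Rab30 -2.18 and -0.50, for Rgs16 -3.50 and -1.18, and for Plin2 -0.89 and 0.03. Pnpla2 (-1.46 and -1.33), Por (-1.42 and -1.84) and Gys2 (-1.31 and -1.10) were called lower in long in both compounds.

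Clofibrate and dioxane were also compared within each schedule, and ethionine was not tested in this way. Short ethionine, clofibrate and dioxane rats averaged 13.01, 13.18 and 12.55 for Cyp4a1. The averages in the same order were 12.48, 13.11 and 12.04 for Ehhadh, and 11.38, 11.87 and 11.50 for Cpt2. Clofibrate short minus dioxane short gave 0 calls in limma and 1128 of 11007 genes at an unadjusted p under 0.05. Among the 79 genes of the 3 fatty acid oxidation lists 24 were at an unadjusted p under 0.05, and all 24 were higher in clofibrate. The medians were 0.23 for peroxisomal, 0.17 for mitochondrial and 0.13 for omega oxidation genes, against 0.013 over all genes. Clofibrate long minus dioxane long gave 0 calls, 210 genes at an unadjusted p under 0.05, 1 of the 79 fatty acid oxidation genes at that level, and medians of -0.004, 0.024 and 0.015. The short comparison depended on the fit, with 27 genes called when all 65 arrays were fitted and 51 without dioxane short rat 3.

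**Figure D5:**
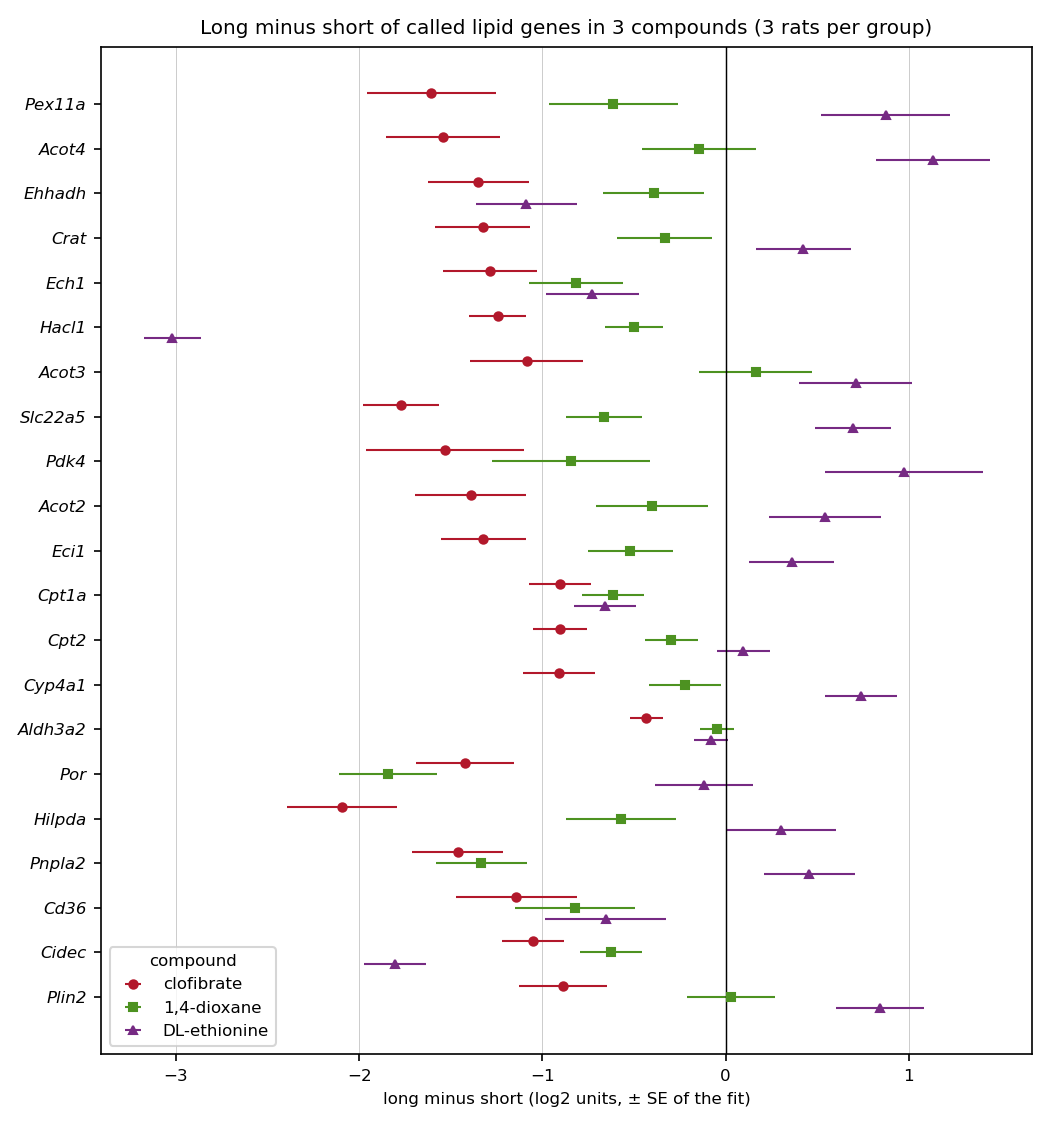
Long minus short difference of 21 lipid genes called in clofibrate, in log2 units with the SE of the fit, for clofibrate (circles), 1,4-dioxane (squares) and DL-ethionine (triangles), 3 rats per group. Clofibrate lies left of dioxane for all genes shown except Por. The genes were chosen for being called lower in clofibrate, which favours that order, and 0 of 11007 genes passed the direct test against dioxane. Ethionine lies right of 0 for genes such as Acot4 (1.13) and left of clofibrate for Hacl1 (-3.02).

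Against the mean of dioxane and ethionine, 1806 genes (16.4%) differed in their long minus short change; against dioxane alone the count was 0, and against ethionine alone it was 4377 (39.8%). The genes called lower in clofibrate that stood furthest below that mean were Enc1, Noct, Egr1, Atf3, Tor3a, Acot4, Hilpda and Znf750. Noct was close to the threshold (adjusted p = 0.0486) and lost this call under most alternatives, and Egr1 lost it with the nongenotoxic set alone (adjusted p = 0.0586) and without clofibrate short rat 2 (adjusted p = 0.117). In ethionine rats Enc1 differed by 1.38 (adjusted p = 0.0017), Egr1 by 1.62 (adjusted p = 0.027), Atf3 by 2.28 (adjusted p = 7.02e-05), Tor3a by 1.86 (adjusted p = 0.000115) and Znf750 by 2.35 (adjusted p = 4.07e-10), all higher in long. The genes called higher in clofibrate that stood furthest above the mean were Stac3, Ppp1r3b, the thyroid hormone deiodinase Dio1, Hao2, the vasopressin receptor Avpr1a, Lims2, Fam149a and the BH3-only gene Bmf, of which Lims2 lost this call without clofibrate short rat 2. Bmf (1.17), Lims2 (1.06) and Fam149a (0.69) had like values in dioxane (1.08, 1.02 and 0.68), unlike Ppp1r3b (1.86 and -0.21). In ethionine they were lower in long (-1.03, -1.42 and -1.76). Dio1 had 9.04 in each of the 3 long rats and 7.49, 7.72 and 7.46 in the short rats (1.48 ± 0.39, adjusted p = 0.0275; the call was lost in each leave-one-out fit), and in ethionine rats it differed by -1.72 (adjusted p = 0.000459). Hao2, higher by 0.57 in clofibrate long, was lower by 3.03 in ethionine long (adjusted p = 8.49e-18).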

How the data were processed

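The deposited values are log2 RMA signals that the authors made per probe set, per the series' design text and the submitters' processing notes; the RMA version is not given in the sources used here. The genotoxic and nongenotoxic sets appear to have been normalized apart. Of 31099 probe sets, 20826 carried 1 gene symbol in the platform annotation, 436 several and 9831 none; 57 control probe sets were dropped. Each of 14217 genes was represented by its single-symbol probe set of highest mean, and genes above the table median (log2 6.03) in at least 2 arrays were tested (11007). A limma 3.58.1 fit (R 4.3.3, lmFit, eBayes) over 41 arrays in 14 groups, with 27 residual degrees of freedom, gave differences, SEs and two-sided p-values, adjusted by Benjamini-Hochberg over all genes with a threshold of 0.05. Of the 41 arrays 21 were of the nongenotoxic and 20 of the genotoxic set. Array number limits the precision.

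Genes were named by rule: the 14 highest and 14 lowest called genes without overlap between long and short rats, the 8 highest and 8 lowest that also differed from the mean of dioxane and ethionine, and up to 6 called members per list. Against dioxane alone, 0 of the 16 genes named by that difference passed. Further called list members are named to account for them, and uncalled members to show a list. The members and the gene lists were chosen with earlier results of these data known. On simulated data for the same comparison (200 of 11007 genes changed), the fit recovered 50.7%, 95.5% and 100% of log2 changes of 0.5, 1 and 2, with 11 false calls. Promoters came from RefSeq (GRCr8). Alternatives covered the filter, probe choice, normalization, the arrays fitted, a replicate block and each rat left out; a fit without control rats and the comparisons with dioxane alone were chosen after seeing the data.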

Additional observations from a re-analysis of the deposited data

Results flagged for a closer look

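The 82 genes named by rule were all called in clofibrate long minus short. For 40 of them the change also differed from the mean change in 1,4-dioxane and DL-ethionine rats. A test of that difference in limma gave them adjusted p-values from 2.64e-09 to 0.0492. The naming rule had picked 16 of the 82 for passing this same test, so for those 16 the count is no support. Of all 11007 genes, 1806 passed it (16.4%). Against dioxane alone 0 of 11007 genes passed, with 605 at an unadjusted p under 0.05, so these differences are not shown for dioxane. Values below are the clofibrate change minus that mean, in log2 units, with 27 genes below and 13 above it.

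Among lipid genes the differences below the mean were -2.035 for Acot4, -1.962 for Hilpda, -1.788 for Slc22a5, -1.738 for Pex11a, -1.597 for Pdk4, -1.462 for Acot2, -1.372 for Crat, -1.324 for Plin2, -1.243 for Eci1, -1.166 for Cyp4a1, -1.024 for Pnpla2, -0.804 for Cpt2 and -0.37 for Aldh3a2. In all of these but Aldh3a2 (-0.08) the estimated ethionine change was positive, from 0.10 for Cpt2 to 1.13 for Acot4, while the clofibrate change was negative. Among early response genes they were -2.547 for Egr1, -2.395 for Atf3, -1.498 for Gadd45a, -1.346 for Ccn2 and -0.959 for Cebpd. The others below the mean were Enc1 (-2.715), the clock output Noct (-2.662, lost under most alternatives), Tor3a (-2.231), Znf750 (-1.954), Nceh1 (-1.72), Rab30 (-1.631), Mfsd2a (-1.303), Tat (-1.274) and Qpct (-0.976).

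Above the mean stood Stac3 (3.441), Ppp1r3b (3.351), Dio1 (2.059), Hao2 (1.878), Avpr1a (1.604), Lims2 (1.261), Fam149a (1.226), Bmf (1.149), Calr (0.746), Kynu (0.493), Cyp4f6 (0.477) and Elovl5 (0.421). Sqle, the sterol enzyme squalene epoxidase, also stood above it (1.202), although it was lower in clofibrate long, since it was lower still in dioxane (-1.47) and ethionine (-2.82).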

How the results depend on the processing

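The count of 382 called genes was 81 to 422 when each clofibrate rat was left out in turn (228, 213 and 212 without long rats 1, 2 and 3; 81 without short rat 2) and 222 with the 6 clofibrate arrays alone. Under the other alternatives (filters, probe mean, trend, quantile normalization, other array sets) it was 334 to 504. With the replicate number as a block it was 346; same-numbered rats did not deviate together (correlations of 0.013, -0.033 and 0.101), so the block is no pairing. None of the 82 named genes changed sign in the alternatives run. Of them, 55 lost the call without short rat 2, and 36 of 81 lost it with the 6 clofibrate arrays alone. The cause was not tested. The 1806 genes that differed from the mean of the other compounds became 0 against dioxane alone and 4377 against ethionine alone. Counts of 0 against dioxane became 1 for the difference of changes (nongenotoxic set alone, or without short rat 2) and 1 for long against long (nongenotoxic set alone). For short against short the count became 3 with quantile normalization, 27 with all 65 arrays, 7 with the nongenotoxic set alone and 0 to 51 with each rat left out (51 without dioxane short rat 3, 4 without clofibrate short rat 1, 2 without clofibrate short rat 2). Of the 82 named genes 18 had another probe set tested. In 10 of these at least 1 other was called the same way, and in 0 an other had the opposite sign. Some gave smaller differences: Enc1 -0.97 against -2.84, Usp2 -1.375 against -2.79, Inhba 1.00 against 2.60, Pdk4 -0.855 against -1.53, Plin2 -0.518 against -0.89 and Igtp 0.275 against 0.75. Of these, Enc1 and Usp2 alone were called by the other probe set. Array number and signal near background limit small differences.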

Other observations

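The following genes were chosen after their values were seen. Ugt2b, a UDP-glucuronosyltransferase, was at 13.48, 13.62 and 13.46 in clofibrate long and 13.15, 13.17 and 13.44 in clofibrate short rats, against 6.81, 6.85 and 6.10 in the 3 control rats. Clofibrate long minus control was 6.93 (limma, adjusted p = 8.86e-05), and the means were 13.39 and 13.35 in dioxane long and short and 13.36 and 13.41 in ethionine long and short rats, so the control group alone was low.

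Mlc1 was at 7.70, 9.10 and 9.19 in clofibrate long and 4.74, 4.90 and 4.77 in clofibrate short rats, against 8.77, 4.62 and 4.88 in control rats. All long rats lay above all short rats, but the gene did not pass (adjusted p = 0.148), and control rat 1 was as high as the long rats. Cxcl1, a chemokine of neutrophils, was at 6.25, 12.40 and 9.05 in the clofibrate short rats, a spread within a group that held its highest value in short rat 2.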
